A study of Homo sapiens with 24 samples.

Results

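PLC/PRF/5 cells treated with TGFb and Galunisertib together were compared with untreated PLC/PRF/5 cells to ask which genes ended away from the untreated state. The comparison rests on 6 of the 24 arrays of the series, 3 of the group PLC/PRF/5, TGFb + Galunisertib and 3 of the group PLC/PRF/5, control, and on the 40588 of 58201 probes whose spots lie in rows 41 to 344 and columns 11 to 154 of the array, away from its edges. PLC/PRF/5 and SNU-449 are established lines of human hepatocellular carcinoma (HCC), and each was profiled as untreated control and with recombinant human TGFβ1 at 1 ng/mL, with the kinase inhibitor galunisertib at 10 µM, or with both. All cultures were serum-starved overnight beforehand, the treatments lasted 16 h, and each group holds 3 independent cultures hybridised to one-colour Agilent arrays. The controls are described as untreated, and a vehicle is not given in the sources used here. Each group sat at the same position of every slide, and the replicate number is also the slide, so position on the slide cannot be told apart from treatment. The results describe 1 cell line in culture. The 75th percentile of the processed signal, by which each array was scaled, was 144.9 to 256.6 intensity units on the control arrays (median 233.6) and 227.6 to 253.8 on the combined-treatment arrays. Control replicate 1 was the dimmest of the 6 arrays. Detection was similar in both groups, with 45.1% to 50.3% of probes called well above background in control arrays and 47.8% to 49.6% in combined-treatment arrays. Levels are log2 values of the signal over that percentile, so a level of 0 lies at the 75th percentile of the array and values below -4.13 were set to that floor.

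TGFβ1 binds a pair of type II and type I receptor kinases, and the type I kinase TGFBR1 phosphorylates SMAD2 and SMAD3, which enter the nucleus with SMAD4 and bind DNA at short motifs such as CAGACA, the SMAD box. The receptor also signals through MAP kinases, which induce immediate early genes and the phosphatases that switch them off again. Galunisertib is a small molecule that blocks the TGFBR1 kinase, whether the ligand was added or made by the cells, and acts less selectively on related receptors. In liver cells TGFβ restrains growth, and later in cancer it favours invasion and dedifferentiation. The arrays carried the profile of hepatocyte-derived cells. The control levels were 8.78 for *SERPINA1*, 7.97 for *RBP4* and 4.52 for *APOB*, which encode secreted liver proteins, and 2.32 for the epithelial cadherin gene *CDH1*. Of 14 markers of other cell types, 6 were above background on all 3 control arrays. They were the leukocyte genes *PTPRC* and *CD14*, the endothelial genes *VWF* and *CDH5*, and *PDGFRB* and *DES*. The endothelial genes *PECAM1*, *KDR* and *TEK* and the stromal genes *DCN*, *LUM* and *COL3A1* were above background on 0 of 3. For *PECAM1*, *CDH5*, *KDR*, *DCN* and *COL3A1* these levels come from outer spots, since no inner probe measured them.

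The bases before the transcription start are shown for 3 genes that the results turn on, *BDH1*, *SULT2A1* (the deepest called fall) and *EGR1* (an immediate early gene that rose), as RefSeq gives them for GRCh38.p14. Each run is read 5′ to 3′ on the strand of the gene, and capitals mark CAGACA, the AP-1 letters TGANTCA, the aryl hydrocarbon receptor core GCGTG or the E-box CACGTG on either strand. *BDH1* lies at chr3:197573344-197573593 on the minus strand, *SULT2A1* at chr19:47886316-47886565 on the minus strand and *EGR1* at chr5:138465229-138465478 on the plus strand.
BDH1: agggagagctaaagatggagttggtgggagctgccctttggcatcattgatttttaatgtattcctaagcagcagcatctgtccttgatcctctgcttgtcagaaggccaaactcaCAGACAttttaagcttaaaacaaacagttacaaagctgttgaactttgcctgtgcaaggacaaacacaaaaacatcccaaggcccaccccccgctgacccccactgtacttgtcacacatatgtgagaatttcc
SULT2A1: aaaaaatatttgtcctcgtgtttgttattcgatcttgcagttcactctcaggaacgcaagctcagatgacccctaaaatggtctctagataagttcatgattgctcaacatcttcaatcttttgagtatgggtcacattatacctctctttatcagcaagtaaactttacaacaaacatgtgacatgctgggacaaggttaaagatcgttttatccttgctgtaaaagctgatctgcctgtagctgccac
EGR1: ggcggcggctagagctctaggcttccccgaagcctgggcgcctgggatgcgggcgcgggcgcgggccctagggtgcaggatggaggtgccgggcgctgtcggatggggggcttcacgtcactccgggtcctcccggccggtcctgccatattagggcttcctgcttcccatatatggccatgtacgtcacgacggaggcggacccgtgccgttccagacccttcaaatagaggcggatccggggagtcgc
Only *BDH1* of these 3 holds any of the letters searched, the SMAD box. Among the 56 genes called below, 18 of the 25 that rose and 17 of the 31 that fell had a promoter of this kind, and CAGACA was found in 3 of those 18 and in 3 of those 17, against 10.2% of the promoters of all genes tested. TGANTCA stood in 1 and 0 of them against 4.28%, and GCGTG in 6 and 4 against 43.7%. CACGTG, which shares the letters CGTG with GCGTG, stood in 2 and 0 against 8.68%. A match is a description of letters and not a binding site.

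*BDH1*, which encodes the mitochondrial enzyme that interconverts the ketone bodies acetoacetate and 3-hydroxybutyrate, and *SERPINF2*, which encodes the liver plasma protein that inhibits plasmin, were both lower after combined treatment than in untreated cells. *BDH1* had levels of -0.14, -0.21 and 0.20 on the control arrays and of -1.35, -1.76 and -1.42 after combined treatment. The groups were fully separated, and the mean fell from -0.05 ± 0.22 to -1.51 ± 0.22 (SD, n = 3), 2.75-fold lower on the scale of scaled signal (log2 difference -1.46, standard error 0.22, limma, adjusted p = 0.0032). *SERPINF2* had levels of -0.79, -0.81 and -0.70 in control cells and of -1.72, -1.97 and -1.79 after combined treatment. Again no treated array reached the lowest control array, and the mean fell from -0.77 ± 0.06 to -1.83 ± 0.13 (SD, n = 3), 2.08-fold lower (log2 difference -1.06, standard error 0.13, limma, adjusted p = 0.00135).

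Galunisertib alone, measured against the same control arrays, gave *BDH1* levels of -2.62, -2.73 and -1.95, and TGFb alone gave 0.66, 0.07 and 0.41. All 3 combined-treatment arrays therefore lay above the 3 Galunisertib arrays and below the 3 control arrays. The difference between combined treatment and Galunisertib alone was 0.92 for *BDH1* (limma, adjusted p = 0.0427) and short of a fold of 2. *SERPINF2* stood at -1.93, -1.74 and -1.75 with Galunisertib alone and at -0.29, -0.85 and -0.61 with TGFb alone. Its Galunisertib and combined-treatment arrays overlapped, with a difference of -0.02 (limma, adjusted p = 0.938). *SERPINF2* lies close to the fold threshold: scaling by the array median gave -0.85, and leaving out TGFb + Galunisertib replicate 2 gave -0.99.

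**Figure D1:**
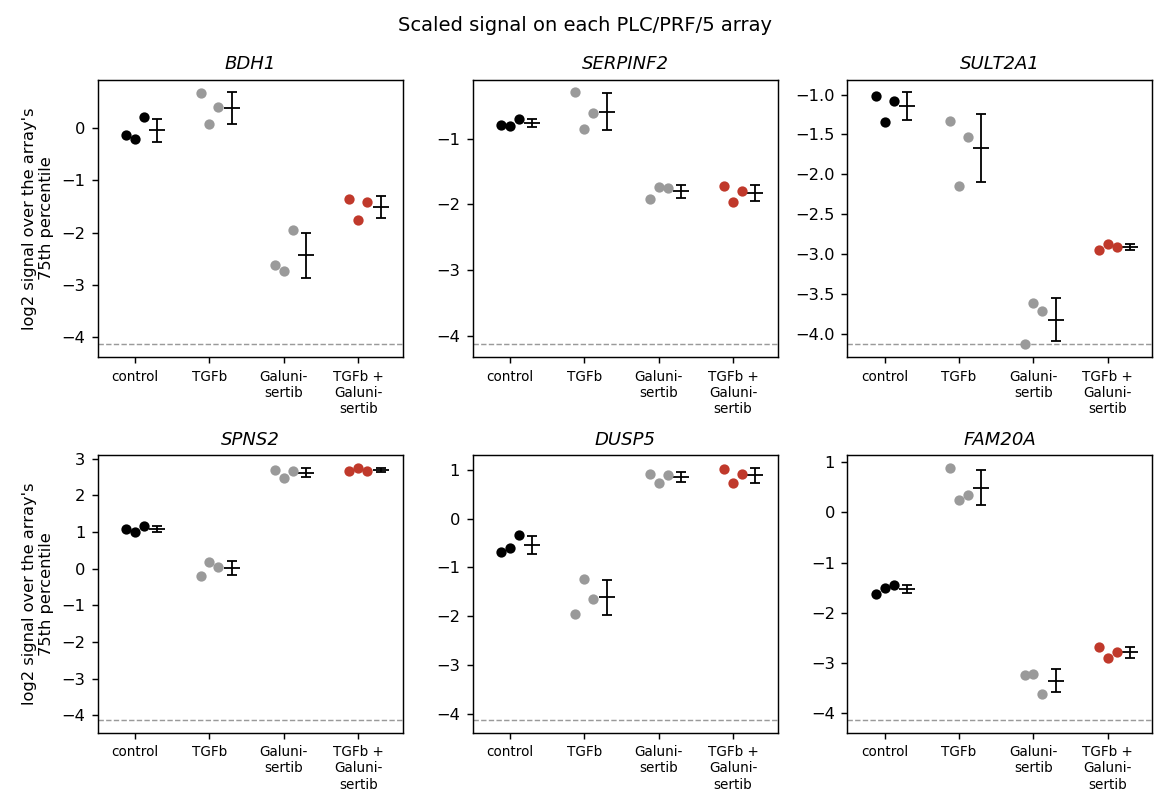
Scaled signal (log2 of the signal over the 75th percentile of its array, vertical axis) of 6 genes on the 12 PLC/PRF/5 arrays, 3 per treatment (horizontal axis). Points are arrays, with combined treatment in red and control in black, bars show the mean ± SD, and the dashed line is the floor of -4.13. In all 6 genes the 3 red points are separated from the 3 black ones, and in *BDH1*, *SULT2A1* and *FAM20A* they also lie above the Galunisertib points.

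Across the array, 12701 genes were tested, each through an inner probe that some group of arrays detected well above background throughout. Genes were called at more than 2-fold and an unadjusted limma *P* below 0.001. By this rule 56 genes (0.441%) differed, 25 upregulated (0.197%) and 31 downregulated (0.244%) versus control. When no gene differs, a *P* this low is reached by about 12.7 of 12701 genes, whatever their fold. Besides the 56, 1014 genes reached such a *P* here but fell short of the fold threshold. The fold threshold did most of the selecting, as 3257 genes had an adjusted p below 0.05, 2269 of them higher (17.9%) and 988 lower (7.78%), while the largest called rise was 1.60 and the deepest called fall -1.76. The called genes just inside the fold threshold reached a log2 difference of 1.00 (*JUN*), and 20 further genes passed the fold threshold but not the *P* threshold, among them *LGI3*, whose difference of -2.63 came with a control SD of 4.42 (n = 3, adjusted p = 0.233). All 56 were separated between the 3 control and 3 combined-treatment arrays, as were 43.6% of all genes tested. Of the 56, 50 were named through RefSeq and 6 through LNCipedia, and 42 were well above background on all 6 arrays. The split between rises and falls moved with the scaling. Scaling by the array median, which shifted the median difference of all genes from 0.05 to 0.26, called 102 rises and 10 falls, and no scaling called 130 and 9. The 75th percentile over probes detected on all arrays, with a median difference of -0.09, called 13 and 65, normexp background correction 14 and 2, and quantile normalization 33 and 19. Leaving out the dim control replicate 1 called 48 genes, and leaving out control replicate 3 called 86.

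**Figure D2:**
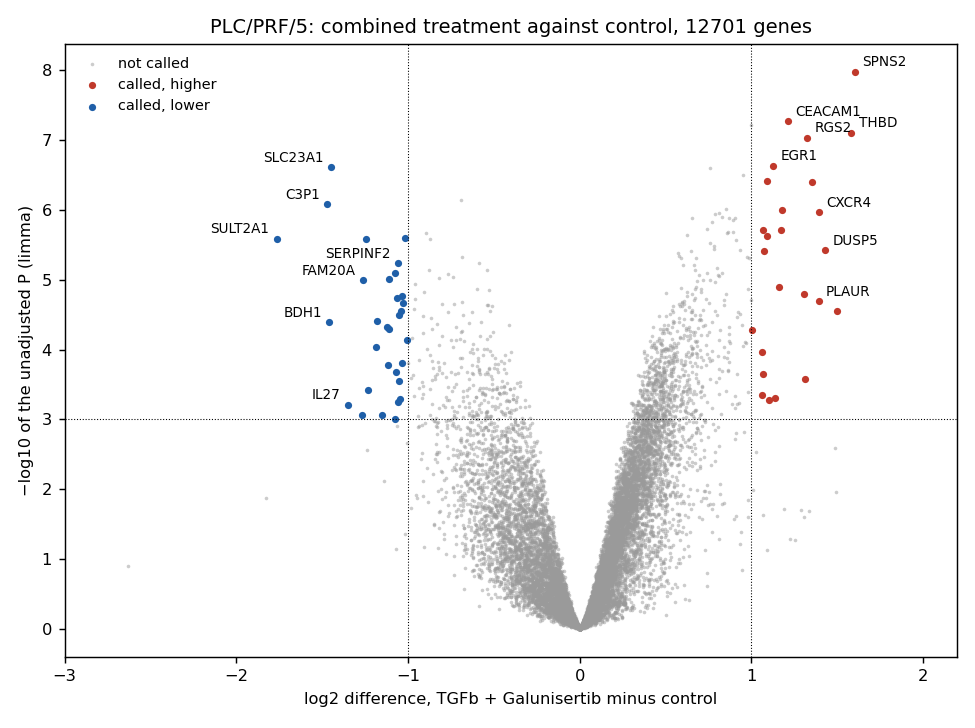
Difference between combined treatment and control (log2, horizontal axis) against the unadjusted limma *P* (−log10, vertical axis) for 12701 genes. Dotted lines mark the fold and *P* thresholds, red points the 25 called rises and blue points the 31 called falls. *SPNS2* has the smallest *P* of the rises, and the falls reach -1.76 at *SULT2A1*.

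Among the named rises, 4 genes carry or regulate signals at the cell surface. *SPNS2*, the exporter of sphingosine-1-phosphate, stood at 1.10, 1.01 and 1.17 in control cells and at 2.66, 2.75 and 2.67 after combined treatment. The arrays within each group differed by less than 0.2, and the rise was 3.03-fold (log2 difference 1.60, standard error 0.10, limma, adjusted p = 0.000133). *CXCR4*, the receptor of the chemokine CXCL12, rose from 2.22, 2.28 and 2.51 to 3.84, 3.81 and 3.53, a difference of 1.39 (adjusted p = 0.000753). *F2RL1*, a receptor activated by serine proteases such as trypsin, went from 0.78, 0.77 and 0.94 to 2.40, 2.16 and 1.99, a difference of 1.35 (adjusted p = 0.000455). *RGS2*, which shortens G protein signals, rose by 1.32, from a mean of -1.04 to levels of 0.30, 0.35 and 0.20 (adjusted p = 0.000234). All 4 genes had their Galunisertib arrays well above the control arrays too, with differences from control of 1.53 for *SPNS2*, 1.28 for *CXCR4*, 0.93 for *F2RL1* and 1.19 for *RGS2*, whereas TGFb alone gave -1.07, 0.03, -0.25 and -0.69.

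Immediate early genes and the feedback inhibitors of the MAP kinase pathway were mostly higher. Of 21 tested members of this list, 19 were higher and 2 lower than in control cells, as were 7147 and 5550 of all genes tested. At an adjusted p below 0.05, 13 members were higher and 0 lower, beside 17.9% and 7.78% of all genes tested, and the list median was 0.49 where the median of all 12701 genes was 0.05. The list median kept its sign under all 23 other settings, between 0.34 and 0.74. Some of these settings, such as a block for the replicate number, leave the differences unchanged and cannot move it. Members past the fold threshold were *DUSP5*, *EGR1* and *JUN*. *DUSP5*, the nuclear phosphatase of the kinase ERK, rose from -0.69, -0.60 and -0.34 to 1.03, 0.72 and 0.91 (log2 difference 1.43, standard error 0.17, limma, adjusted p = 0.00109). The lowest treated array was above the highest control array by more than 1 log2 unit. *EGR1*, a zinc finger transcription factor induced within minutes of ERK activation, rose from 2.64, 2.51 and 2.80 to 3.95, 3.65 and 3.73, a difference of 1.13 (adjusted p = 0.000401). *JUN*, a subunit of AP-1, rose from 0.66, 0.34 and 0.68 to 1.75, 1.60 and 1.35, which put it at the fold threshold.

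Below the fold threshold but with an adjusted p below 0.05 stood the Sprouty inhibitor genes *SPRY2* (0.80) and *SPRY1* (0.32), *IER3* (0.78), *IER2* (0.70), the ETS factor gene *ETV5* (0.68) and *FOS* (0.63). The ETS factor gene *ETV4* (-0.24, adjusted p = 0.221) and *SPRY4* (-0.23, adjusted p = 0.493) were the members with negative differences. Against the same control arrays, the list median was 0.51 with Galunisertib alone and -0.21 with TGFb alone. *EGR1* differed from Galunisertib alone by 0.46 (limma, adjusted p = 0.0342), while *DUSP5* (0.04, adjusted p = 0.918) and *JUN* (0.49, adjusted p = 0.0817) did not pass.

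**Figure D3:**
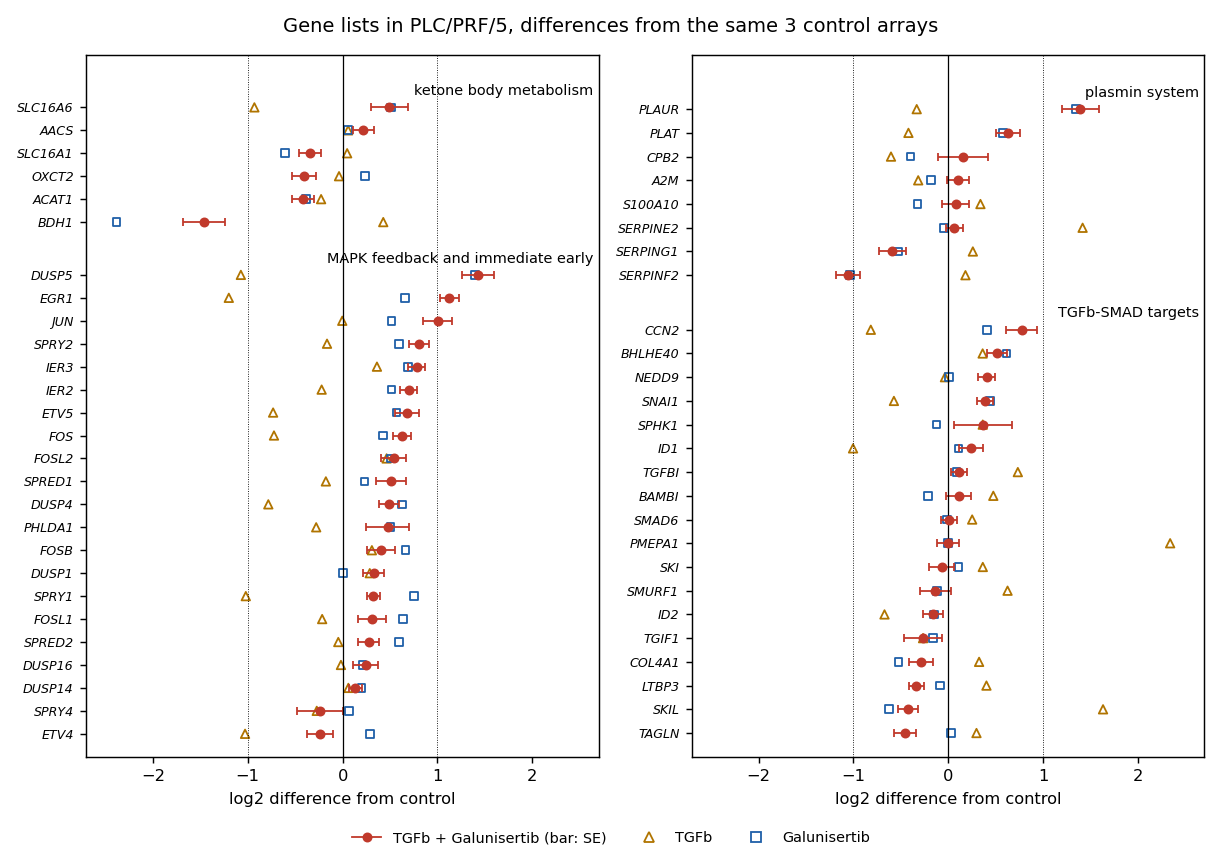
Differences from control (log2, horizontal axis) of the tested members of 4 gene lists (vertical axis) in PLC/PRF/5. Red circles with standard errors show combined treatment, triangles TGFb alone and squares Galunisertib alone, all against the same 3 control arrays, and dotted lines mark a fold of 2. The MAP kinase list lies to the right of 0 in 19 of 21 genes, and *SKIL* and *PMEPA1* lie far to the right with TGFb alone only.

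Of the named genes, *THBD* and *PLAUR*, which act in clotting and in plasmin formation, rose. Thrombomodulin (*THBD*), which turns thrombin into an activator of the anticoagulant protein C, rose from -0.33, -0.23 and 0.02 to 1.48, 1.37 and 1.35, which was 2.99-fold (log2 difference 1.58, standard error 0.12, limma, adjusted p = 0.000234). The urokinase receptor gene *PLAUR* stood at -2.88, -3.56 and -3.28 in control cells, and rose to -1.68, -1.91 and -1.96, a difference of 1.39 (adjusted p = 0.00252). *TFPI*, the inhibitor of the tissue factor pathway, chosen after its values were seen, rose by 1.09 (adjusted p = 0.000455). In the list of the plasmin system, 8 genes were tested, 6 were higher and 2 lower, and the list median was 0.09, with a sign that changed under 2 of 23 other settings. *PLAUR* was its 1 called rise and *SERPINF2* its 1 called fall. The tissue activator gene *PLAT* was 0.63 higher (adjusted p = 0.00794) and *SERPING1*, the C1 inhibitor, 0.59 lower (log2 difference -0.59, adjusted p = 0.0145), both short of a fold of 2. *SERPINE2*, a protease inhibitor that stood 1.42 above control with TGFb alone, differed from control by 0.06 after combined treatment (adjusted p = 0.622).

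Other called rises encode surface, matrix and nuclear proteins. *CEACAM1*, a cell adhesion molecule of hepatocytes and immune cells, rose from 0.24, 0.13 and 0.16 to 1.52, 1.23 and 1.42 (log2 difference 1.21, standard error 0.09, limma, adjusted p = 0.000234). It was also above Galunisertib alone, by 0.55 (adjusted p = 0.0264). These values come from the brighter of its 2 tested probes. The mean of these probes gave a difference from control of 0.52, which was not called. *CEMIP*, which takes part in hyaluronan breakdown, rose from -0.42, -0.56 and -0.37 to 1.01, 0.65 and 0.50 (adjusted p = 0.000883). *SOX9*, a transcription factor of bile duct and progenitor cells, rose from -0.78, -0.44 and -0.14 to 0.60, 0.78 and 0.74 (adjusted p = 0.00206). In all 3 genes the lowest treated array exceeded the highest control array. *SOX9* was the most variable of them among control arrays (SD 0.32, n = 3). The long noncoding RNA *LINC00239* rose by 1.18 (adjusted p = 0.000753). Among rises chosen after their values were seen, *SQOR*, a mitochondrial enzyme of sulfide oxidation, went from 5.11, 5.32 and 5.55 to 6.46, 6.25 and 6.47. *AGR2*, a disulfide isomerase of the secretory pathway, and *ANGPT2*, a ligand of the endothelial receptor TIE2, were well above background on 2 of 3 control arrays each and on all 3 combined-treatment arrays, with differences of 1.50 and 1.31.

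Falls included several enzymes and transporters of the liver. *SULT2A1*, the sulfotransferase of dehydroepiandrosterone and bile acids, fell furthest, from -1.01, -1.34 and -1.08 to -2.95, -2.88 and -2.91, which was 3.40-fold lower (log2 difference -1.76, standard error 0.20, limma, adjusted p = 0.000889). With Galunisertib alone it was lower still, at -4.13, -3.62 and -3.72, where the first array is at the floor, and combined treatment exceeded Galunisertib alone by 0.91 (adjusted p = 0.035). *SLC23A1*, the sodium-coupled vitamin C transporter of epithelia, fell from -0.78, -1.01 and -0.88 to -2.18, -2.30 and -2.53 (log2 difference -1.45, standard error 0.13, limma, adjusted p = 0.000401). It differed from Galunisertib alone by 0.09 (adjusted p = 0.673). *SLC17A4*, an organic anion transporter, fell from 0.55, 0.80 and 1.00 to -0.31, -0.46 and -0.10 (adjusted p = 0.00162). The alcohol dehydrogenase gene *ADH6*, chosen after its values were seen, fell by 1.06 (adjusted p = 0.00669).

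The broader hepatocyte lists held no called gene, but only 0.441% of all genes tested were called, so a count of 0 does not set these lists apart. At an adjusted p below 0.05, 17.9% of all genes tested were higher and 7.78% lower. Of 22 tested genes of secreted liver proteins and liver metabolism, 0 were called, 11 were higher and 11 lower, and the median was -0.02, with a sign that changed under 11 of 23 other settings. The 5 members with an adjusted p below 0.05 were all lower, among them *ITIH1* (-0.84), the vitronectin gene *VTN* (-0.63) and the fibrinogen gene *FGA* (-0.47). Of 21 tested hepatocyte transcription factors, 0 were called, 3 were higher and 4 lower at an adjusted p below 0.05, and the median was -0.04, with a sign that changed under 4 of 23 settings. *HLF*, a factor of the circadian PAR bZIP family, was 0.74 higher (adjusted p = 0.00162), and *FOXA3* had a difference of -0.48 (adjusted p = 0.00751). In the list of ketone body metabolism, 6 genes were tested and the median was -0.37. *BDH1* was its 1 called gene, and the thiolase gene *ACAT1* (-0.42, adjusted p = 0.0256) and *OXCT2* (-0.41, adjusted p = 0.0414) were lower by less than a fold of 2.

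*C3P1*, a pseudogene related to complement component 3, fell from 0.31, 0.19 and 0.44 to -1.33, -1.21 and -0.94, a difference of -1.47 (adjusted p = 0.000753), and a probe for it may share signal with the parent gene. *FAM20A*, a pseudokinase that activates the secretory kinase FAM20C, fell from -1.62, -1.51 and -1.45 to -2.67, -2.91 and -2.78, a difference of -1.26 (adjusted p = 0.00176). With TGFb alone it stood at 0.88, 0.25 and 0.35, above every control array. *IL27*, a cytokine subunit, fell from -1.55, -1.64 and -1.81 to -3.60, -2.57 and -2.90, and its treated arrays were the most spread of the genes described so far (SD 0.53, n = 3). Its call was lost under 10 of 23 other settings. *CAPN12*, a calpain protease, fell from -0.90, -1.09 and -1.16 to -2.61, -2.23 and -2.04 and was also below Galunisertib alone, by a difference of -0.86 (adjusted p = 0.0264). *ROBO2*, a receptor of the guidance protein Slit, fell by 1.19 (adjusted p = 0.00444). *KRTAP3-3* of the keratin-associated proteins fell from 5.98, 5.57 and 5.35 to 4.75, 4.20 and 4.61 (adjusted p = 0.00352). *SPACA6*, named for its role in sperm, fell by 1.18 (adjusted p = 0.00319). *GOLGA8R* (-1.08, adjusted p = 0.0117) belongs to a family of near-identical golgin copies, so its probe may not separate them, and its call was lost under 17 of 23 other settings.

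Several falls ended at or near background. The LNCipedia transcripts *lnc-P2RX3-1* (-1.23) and *lnc-TRH-2* (-1.15) were well above background on all 3 control arrays and on 1 and 2 of the combined-treatment arrays, and lost their call under 11 and 15 of 22 other settings. *lnc-TNFAIP2-1* stood at -2.84, -3.21 and -2.98 in control cells, each well above background, and was above it on 0 of 3 combined-treatment arrays, so its level was at least 2.17-fold lower. *GOLGA8K* was at -3.15, -2.99 and -3.16 in control cells, above background on 2 of 3 arrays, and at least 2.03-fold lower after combined treatment. With a doubled floor their differences were -0.15 and -0.05, and no longer called. These bounds set each dim array to the higher of the signal of the probe and the weakest signal called well above background, and were not themselves tested. The differences of the floored values were -1.12 and -1.03 (limma, adjusted p = 0.00346 and 0.00257).

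Direct targets of TGFβ-SMAD signalling stood on both sides of the untreated level. Of 18 tested list members, 0 were called (0.441% of all genes tested were), 9 were higher, 8 lower and 1 at the floor in both groups. The median was 0.00, where it was 0.34 with TGFb alone against the same control arrays. The sign of this median changed under 5 of 23 other settings. At an adjusted p below 0.05, 4 members were higher and 3 lower, beside 17.9% and 7.78% of all genes tested. *SKIL*, a SMAD corepressor that TGFβ induces as negative feedback, had levels of -0.50, -0.53 and -0.28 in control cells, 1.13, 1.21 and 1.24 with TGFb alone and -0.83, -0.99 and -0.76 after combined treatment. Its combined-treatment arrays thus lay below all control arrays, by a difference of -0.43 (adjusted p = 0.0172), and 2.06 below TGFb alone (log2 difference -2.06, adjusted p = 5.9e-07). *PMEPA1*, another induced inhibitor of SMAD signalling, was at the floor on all control and all combined-treatment arrays and at -1.80, -1.50 and -2.08 with TGFb alone. The inhibitory SMAD gene *SMAD7* had no probe among the inner spots. These members were *CCN2* (0.77), *BHLHE40* (0.51), *NEDD9* (0.40), *SNAI1* (0.39), *SKIL*, *LTBP3* (-0.34) and *TAGLN* (-0.46). *CCN2*, a matricellular protein, was above control after combined treatment and below it with TGFb alone (-0.82, adjusted p = 0.00907). Of the mesenchymal and epithelial lists 0 genes were called, beside 0.441% of all genes tested. Their medians were 0.16 over 9 and 0.13 over 17 tested genes, each of which changed sign under 2 of 23 other settings.

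Markers of other cell types were lower after combined treatment. All 6 tested markers of leukocytes, endothelium and stellate cells were lower than in control cells (median -0.37), 2 with an adjusted p below 0.05, *PDGFRB* (-0.38) and *RGS5* (-0.59, from another probe than the one summed below, which was above background on 0 of 3 arrays). At this threshold 7.78% of all genes tested were lower. The summed scaled signal of 14 such markers was 4.28 to 4.94 times the 75th percentile on control arrays and 3.30 to 3.78 times after combined treatment, with 5 of them read from outer spots. *PDGFRB* (0.72 in control cells and 0.33 after combined treatment) and *DES* (0.78 and 0.40) were the brightest of the 14 and made up most of the sum. *PECAM1*, *KDR*, *TEK*, *DCN*, *LUM* and *COL3A1* were at the floor in both groups. The endothelial cadherin gene *CDH5*, read from outer spots, was at -2.59 and above background on 3 of 3 control arrays, and at -3.83 and above background on 0 of 3 combined-treatment arrays. Their part in the results was not tested.

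Combined treatment was then set against each agent alone, where a difference is tested directly. Against Galunisertib alone, 5 genes were called (0.0394%), 1 higher and 4 lower, and 680 genes (5.35%) had an adjusted p below 0.05. *LOC100128593* was at -0.94, -0.92 and -0.98 after combined treatment and at -1.74, -2.38 and -2.42 with Galunisertib alone (log2 difference 1.23, limma, adjusted p = 0.028). *CLIP2*, a microtubule-binding protein, was at -3.87, -3.50 and -3.69 against -2.60, -2.47 and -2.95, a difference of -1.02 (adjusted p = 0.0184). The other 3 were *lnc-PIK3CG-2*, *TMEM89* and *MYH11*, the last 2 above background on 1 and 2 of 3 arrays after combined treatment. Of the 56 genes away from control, 1 was called here and 10 had an adjusted p below 0.05. The count was 23 without Galunisertib replicate 3 and 49 when the outer spots were included.

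Against TGFb alone, 399 genes were called (3.14%), 173 higher and 226 lower, and 5127 (40.4%) had an adjusted p below 0.05. Among genes well above background on all 6 arrays compared, the largest called differences were in *FAM20A* (-3.28), *BMF* (-3.24), *MACROH2A2* (-2.71), *SPNS2* (2.67) and *TSC22D3* (-2.61). *BMF*, which encodes a BH3-only protein of the apoptotic machinery, stood at -0.05, 0.21 and 0.24 in control cells, 2.42, 2.23 and 2.35 with TGFb alone and -0.79, -1.03 and -0.89 after combined treatment. Its combined-treatment level was therefore below control by a difference of -1.04 (adjusted p = 0.0052) while TGFb alone was above it. *TSC22D3*, the glucocorticoid-induced leucine zipper gene, and the histone variant gene *MACROH2A2* showed the same order, with differences from control of -0.50 and -0.69 after combined treatment, both short of a fold of 2. Of the 56 genes, 44 were called against TGFb alone, in a comparison that shares the combined-treatment arrays. Of the 25 rises, 20 had a TGFb mean below control and 25 a Galunisertib mean above it, and of the 31 falls, 19 had a TGFb mean above control and 30 a Galunisertib mean below it. These counts share the control arrays on which the 56 genes were chosen, so they follow in part from that choice. Over all genes tested, the median difference from control was -0.03 with TGFb alone and 0.05 with Galunisertib alone.

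The genes that moved in PLC/PRF/5 were then compared with SNU-449, which was treated in parallel. In a fit over all 24 arrays, 26 of 13603 genes (0.191%) were called for combined treatment against control in SNU-449, and 0 of the 56 were among them. The difference between the responses was called for 81 genes (0.595%), and for 32 of the 56, a share that follows in part from choosing these genes on the same PLC/PRF/5 arrays. Of those 32, 16 genes were above background on 0 of the 6 SNU-449 arrays compared, and 12 on all 6. *SULT2A1*, *SERPINF2*, *FAM20A* and *SLC17A4* were at the floor on all SNU-449 arrays compared, so their response there could not be measured with the probes and floor used here. *SPNS2* was measured well in both lines, with a level of 6.36 in SNU-449 controls, and it differed from control by 0.03 there and by 1.60 in PLC/PRF/5 (difference 1.57, standard error 0.25, limma, adjusted p = 0.00195). *THBD* (difference 1.63, adjusted p = 1.88e-05) and *EGR1* (1.44, adjusted p = 0.00701) were likewise measured on every array and differed from their SNU-449 controls by -0.05 and -0.32. *DUSP5* was 0.58 above control in SNU-449 (adjusted p = 0.0595) and *CEACAM1* 0.66 above (adjusted p = 0.157). The difference between the lines was 0.85 for *DUSP5* (limma, adjusted p = 0.0292), which was not called because it fell short of a fold of 2. For *CEACAM1* this difference was 0.55 (limma, adjusted p = 0.316) and was not called either.

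**Figure D4:**
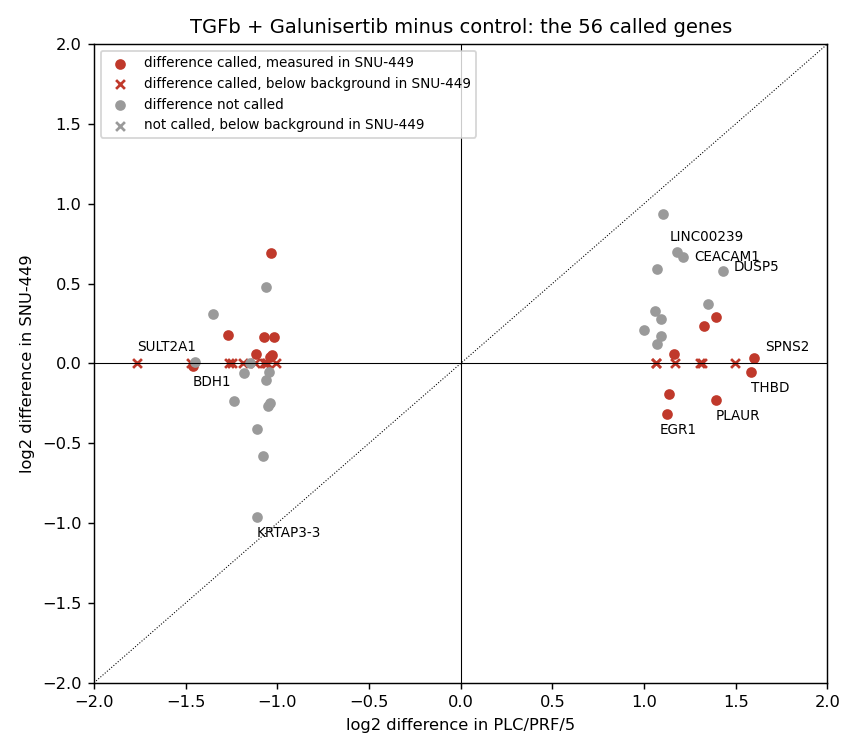
Differences between combined treatment and control (log2) in PLC/PRF/5 (horizontal axis) and SNU-449 (vertical axis) for the 56 genes called in PLC/PRF/5. Red marks genes whose response differed between the lines by a call, crosses mark genes that 0 of the 6 SNU-449 arrays detected above background, and the dotted line marks equal differences. All points lie beyond 1 log2 unit on the horizontal axis because they were chosen there, and none passes 1 on the vertical axis.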

How the data were processed

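The members of the comparison and the gene lists were chosen with earlier results of these data known. The authors deposited, for each array, scanner output of Agilent Feature Extraction 10.7.3.1, in which the processed signal is a linear intensity with background already subtracted and no normalization between arrays. They also deposited a GeneSpring table of log2 values, centred on the median of each probe, which served as an alternative only (r = 0.9982 and slope 1.001 against the scaling used here, over 14041 probes). Its column medians were -0.0568 to 0.057. The normexp alternative used median signals, as mean signals were not used here.

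Control spots and 111 to 216 flagged spots per array were left out. Signals were expressed relative to the 75th percentile per array, values under 5.7% of it were set to that floor (the typical weakest signal well above background) and log2 was taken. Of 40588 inner probes, 21668 were named by RefSeq accession (assembly GRCh38.p14, for names and promoters only, as the array design is older), 7459 by LNCipedia and 11461 had no name here. Tested probes were detected well above background on all arrays of 1 or more groups, and the brightest probe stood for its gene. Floored values understate the change of dim genes.

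limma 3.58.1 (R 4.3.3) served for all fits. Comparisons within PLC/PRF/5 used the 12 arrays of the line and those between lines all 24, with Benjamini-Hochberg adjustment over all genes tested. The study's methods used a random variance version of the 2-sample test, and limma shares the spread between genes in a like way. P-values measure the spread between 3 cultures per group. The steps were tested on simulated data. Arrays of a group correlated at 0.9906 to 0.9966, and their number, 3 per group, limits the precision. Named genes are *BDH1* and *SERPINF2*, the 12 largest called rises and falls well above background on all 6 arrays, genes with a bound, called list members, the feedback genes of TGFβ signalling, the 5 largest noncoding calls and the largest calls against each agent alone. A noncoding call of this rule is not reported here. Genes outside this rule were chosen after their values were seen, as were those named in the closing section. No explanation was weighed.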

Additional observations from a re-analysis of the deposited data

Results flagged for a closer look

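The response to combined treatment differed between PLC/PRF/5 and SNU-449 by the test of the difference for 18 of the named genes, and for 0.595% of all genes tested. All 18 had first been called on the same PLC/PRF/5 arrays, so their number follows in part from that choice. Groups of 3 arrays were too small to judge from their spread whether a single array stands apart. Counts with single arrays left out are given below. Log2 differences between the responses, PLC/PRF/5 minus SNU-449, were positive for *THBD* (1.63), *PLAUR* (1.62), *SPNS2* (1.57), *EGR1* (1.44), *CEMIP* (1.17), *CXCR4* (1.11), *SOX9* (1.10) and *RGS2* (1.09). Of these, *CEMIP* was not above background on any SNU-449 array compared, so its value repeats the PLC/PRF/5 response, and the other 7 were above background on all 6. Differences were negative for *SULT2A1* (-1.76), *C3P1* (-1.47), *BDH1* (-1.44), *FAM20A* (-1.26), *CAPN12* (-1.25), *ROBO2* (-1.19), *lnc-TNFAIP2-1* (-1.12), *GOLGA8K* (-1.08), *SLC17A4* (-1.07) and *SERPINF2* (-1.06). None of these 10 was above background on all 6 SNU-449 arrays compared, *GOLGA8K* coming nearest with 5, so the negative values rest on signals at or near the floor in SNU-449.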

How the results depend on the processing

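No called direction was reversed for *BDH1*, *SERPINF2* or the other named genes under the alternatives, but calls were lost, most often for *GOLGA8R* (17 of 23), *lnc-TRH-2* (15 of 22), *lnc-P2RX3-1* (11 of 22), *IL27* (10 of 23) and *JUN* (7 of 23). *SPNS2*, *THBD*, *DUSP5*, *CXCR4* and *F2RL1* kept theirs in all 23. The count of 56 genes became 112 with the array median, 139 without scaling, 16 with normexp, 34 with a doubled floor, 109 with all spots, 19 (11 rises and 8 falls) by an ordinary 2-sample *t*-test, and 48 to 86 without single arrays. This *t*-test used only the arrays compared and lacks the random variance model of the study's methods, so it is not the study's own test. *BDH1* kept its difference of -1.46 but not its call by this *t*-test. *SERPINF2* lost its call with the array median (-0.85), without scaling (-0.81) and with normexp (-0.72), and stood between -1.11 and -0.99 without single arrays. Called list members, 6 in the main setting, were 11 without scaling, 3 with normexp, 3 by the *t*-test and 4 to 8 without single arrays. Against Galunisertib alone, 5 genes became 20 with the array median, 8 with the percentile over detected probes, 35 without scaling, 2 with normexp, 3 with probes above background on all arrays, 12 with the floor at 0.5 times and 2 at 2 times its value, 49 with all spots, 9 in the authors' table, 1 by the *t*-test and 4 to 23 without single arrays. Against TGFb alone, 399 became 175 with normexp and 251 by the *t*-test, and 334 to 430 without single arrays, and the split of 173 rises and 226 falls became 327 and 139 with the array median and 100 and 379 with the percentile over detected probes. Between the lines, 81 became 26 with normexp, 34 with probes above background on all arrays, 52 with a doubled floor, 145 with all spots, 52 in the authors' table and 63 to 97 without single arrays. Its split of 32 positive and 49 negative differences became 82 and 14 with the array median, 19 and 81 with the percentile over detected probes, 75 and 6 without scaling, and 45 and 31 with quantile normalization. The *t*-test was not run between the lines. With the replicate number, which is also the slide, as a block, 53 genes were called against control, 5 against Galunisertib alone, 397 against TGFb alone and 82 between the lines. Deviations of same-numbered arrays correlated at -0.0847 to 0.263 between combined treatment and control, at -0.0182 to 0.335 with Galunisertib and at 0.0466 to 0.367 with TGFb, and 2, 3 and 2 of 3 combined-treatment arrays correlated best with their own number. As not every pair exceeded 0.1, the numbers were not taken to pair the samples. The causes of these changes were not tested. Signals near the floor limit what can be called for dim genes.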

Other observations

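Members of further gene groups differed from the untreated level by less than a fold of 2, with 0 genes called in each, beside 0.441% of all genes tested. At an adjusted p below 0.05, 17.9% of all genes tested were higher and 7.78% lower, and the counts below are to be read beside these shares. Of 16 tested NF-κB targets, 7 were higher and 0 lower at an adjusted p below 0.05 and the median was 0.20. They included the chemokine genes *CXCL2* (0.92, adjusted p = 0.00277) and *CCL20* (0.84), the mitochondrial superoxide dismutase gene *SOD2* (0.74, adjusted p = 0.000883) and *ICAM1* (0.57). *TNFAIP3*, which stood 1.01 above control with TGFb alone, differed by -0.04 after combined treatment (adjusted p = 0.778). Of 16 genes of the unfolded protein and ATF4 responses, 6 were higher and 0 lower, among them the pseudokinase gene *TRIB3* (0.63) and the chaperone gene *HSPA5* (0.52), with a median of 0.22. Of 12 interferon-responsive genes, 4 were higher and 0 lower, led by *MX1* (0.83, adjusted p = 0.000753). These medians, against 0.05 for all genes, kept their sign under all 23 other settings. Some of these settings leave the differences unchanged. The sign is judged against 0, while the scaling also shifts the median of all genes.

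Single genes of other groups also differed from control. *MYC* was 0.89 higher (adjusted p = 0.00941) and its antagonist *MXD4* lower (-0.41, adjusted p = 0.0221), whereas 20 cell cycle genes had a median of 0.10 with 2 higher and 1 lower. In the activin and BMP pathway, *BMP6* was higher (0.72, adjusted p = 0.00176), and the receptor gene *BMPR2* (-0.62), *SMAD9* (-0.73) and *BMP4* (-0.49) were lower at an adjusted p below 0.05. Of 20 genes of cholesterol and fatty acid synthesis, 15 were above control, 2 were higher and 1 lower at an adjusted p below 0.05, and the median was 0.12. Of 15 NRF2 targets, 3 were higher and 2 lower, with *GCLC* at 0.74 and *AKR1C1* at -0.60, and their median was 0.06. All 6 tested genes of the aryl hydrocarbon receptor battery had positive differences of at most 0.22 and 0 passed. In the hypoxia and glycolysis list 4 of 16 were higher and 3 lower, and among 11 CDK inhibitor and MYC family genes 3 were higher and 1 lower. The medians of the cell cycle, cholesterol and NRF2 lists each changed sign under 2 of 23 other settings, and that of the aryl hydrocarbon receptor list under 1.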
